A study of Bos taurus with 21 samples.

Results

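Genes of B cells and of immunoglobulin secretion were read in the RNA of somatic cells from the milk of 21 Holstein cows. They were chosen by symbol: CD79A, MS4A1 and BLNK for B cells, IGJ and IGLL1 for immunoglobulin chains, and PIGR and FCGRT for immunoglobulin transport. CD79B and PAX5 were listed with them and were not analysed here, which leaves 7 of 9 genes, out of 12333 genes that were counted in any cow and 13570 gene rows in all. The labels name no treatment, and all cows were of the Holstein breed. The high yielding group (HY) held 9 cows in parity 2 to 4 at lactation day 41 to 268, with a median of day 168. The low yielding group (LY) held 12 cows in parity 2 to 4 at day 52 to 270, with a median of day 211.5. Each cow gave 1 library, so every spread given here is one between animals at a single sampling. Levels are given as CPM, the counts scaled to a common library size with the TMM factors of edgeR, and they rank cows for 1 gene. The files hold no transcript lengths, so levels are not compared between genes.

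B cells carry a membrane immunoglobulin together with the signalling chain encoded by CD79A, and most of them also carry the CD20 protein encoded by MS4A1. After activation a B cell can become a plasma cell, which loses much of this surface equipment and fills with mRNA for secreted immunoglobulin and for the joining chain that links immunoglobulins into polymers. Among the genes read here, 2 encode receptors that bind antibody. The polymeric immunoglobulin receptor, encoded by PIGR, carries polymeric immunoglobulin such as IgA through the secretory epithelial cell. The neonatal Fc receptor, encoded by FCGRT with beta-2 microglobulin, binds IgG and protects it from breakdown. Secretory cells shed into milk, macrophages, neutrophils and lymphocytes all contribute to a milk somatic cell pellet.

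The cells were not sorted, and the marker genes showed a mixture that differed widely between cows. The 7 measured milk protein genes, made by secretory epithelial cells, took between 0.1177% of the gene counts in HY cow 3235 and 60.45% in HY cow 3262. Markers of macrophages, T cells and neutrophils had counts in all 21 cows. In such bulk samples fewer cells of a type and less RNA per cell cannot be told apart. Each library held 7878557 to 28541904 counts on genes, and intervals given below cover counting error only. Mapping rates split the cows into 16 under 85% and 5 above it, of which 1 was HY and 4 were LY, and relations over cows are given for those 16 (the lower set) as well.

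HY cow 2814, in parity 3 at lactation day 41, stood apart from the other 20 cows in 4 of the 7 genes: IGLL1, IGJ, MS4A1 and CD79A. The same cow had the lowest PIGR of all 21. It was also the cow earliest in lactation. For the 7 genes, the comparisons that turn on this cow are therefore given without it as well.

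Of the 7 genes, the immunoglobulin chain genes were the farthest above the rest in this cow. IGLL1 belongs to the immunoglobulin lambda family, whose members resemble each other, so that reads of other lambda light chains may have been counted on it or lost to it, and its level is uncertain for that reason. In HY cow 2814 IGLL1 had 15117 counts, or 0.08841% of the gene counts (95% exact binomial interval 0.087% to 0.08983%), and a level of 740.4 CPM. In the other 8 HY cows the level was 0.2113 CPM (2 counts) at the lowest, 1.496 at the median and 5.869 at the highest. In LY it was 1.894, 6.337 and 43.02 CPM, in the same order. Cow 2814 lay above every LY cow, whereas the other HY cows filled the lower part of the range. Its level was 161-fold the median of the other 20 cows, the largest such ratio among the 9246 genes ranked. Ranked genes had at least 10 counts in this cow, a mean of at least 0.1 CPM and a median above 0 elsewhere. Cow 2814 was taken as the cow with the highest IGLL1, so this rank is not separate evidence.

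IGJ encodes the joining chain and is now named JCHAIN in RefSeq. Its level was 181.3 CPM from 3701 counts in cow 2814. The other 8 HY cows lay between 2.161 and 6.126 CPM with a median of 4.141, and the 12 LY cows between 2.463 and 9.366 CPM with a median of 6.469. Apart from cow 2814 the 20 cows thus spanned a 4.335-fold range, with the groups overlapping, while cow 2814 was at 35.48-fold their median.

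MS4A1 and CD79A, the B cell surface genes, were highest in the same cow by smaller ratios. MS4A1 was at 57.31 CPM, or 1170 counts, in cow 2814. Its level in the other 8 HY cows ran from 0 to 8.823 CPM with a median of 1.158. In LY it ran from 0.09472 CPM (1 count) to 16.28 CPM with a median of 5.555. The value of 0 in HY cow 3280 allows a level of up to 0.5892 CPM, which corresponds to 3 counts. Cow 2814 was at 19.76-fold the median of the others.

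CD79A reached 17.54 CPM, or 358 counts, in cow 2814, which was 7.659-fold the median of the other 20. The other HY cows lay between 1.223 and 3.305 CPM with a median of 2.11, and the LY cows between 0 and 8.653 CPM with a median of 2.807. LY cow 2893 had no CD79A count, which allows up to 0.3435 CPM. The LY cows spread more widely than the HY cows other than 2814, both above and below them.

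BLNK, an adaptor that passes on the B cell receptor signal and is also used in macrophages, did not follow this pattern. It was at 56.13 CPM in cow 2814, the fifth highest level of the 21 cows and 1.321-fold the median of the others. HY cows ran from 11.39 to 80.16 CPM with a median of 46.7, and LY cows from 19.71 to 107.4 CPM with a median of 42.5. The 2 groups overlapped over most of their range.

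PIGR ordered the cows in another way. The level was 2.449 CPM in cow 2814, from 50 counts. It was 1324 CPM, from 15561 counts, in HY cow 3262. The HY median was 28.44 CPM. In LY the lowest, median and highest levels were 7.407, 113.7 and 490.3 CPM. The lowest and the highest cow were thus both HY, and the LY cows lay between them.

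FCGRT was measured at a more even level. It ran from 136 to 506.2 CPM in HY with a median of 227.1, and from 129 to 583.9 CPM in LY with a median of 213.3. Cow 2814 was the second highest, at 2.307-fold the median of the others. LY cow 3161 was highest in FCGRT and BLNK and second in IGLL1.

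**Figure D1:**
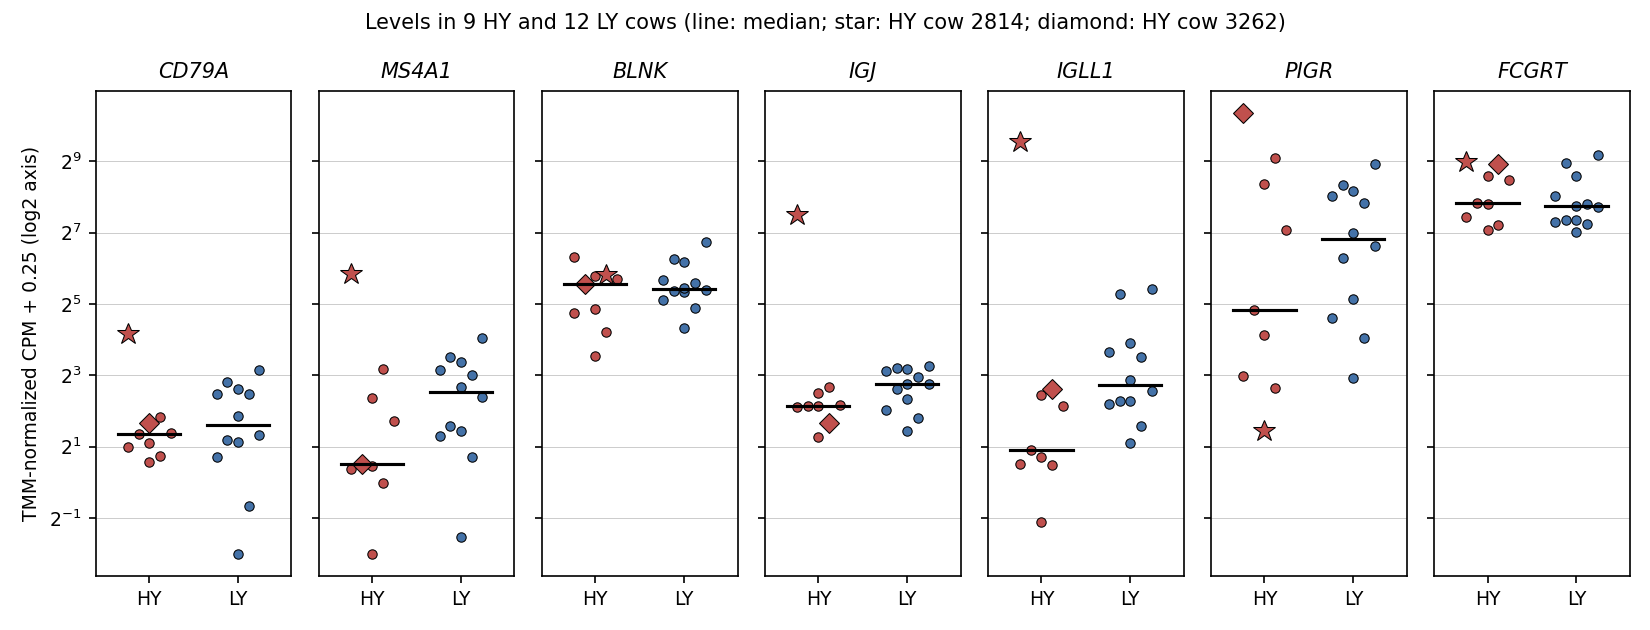
TMM-normalized CPM + 0.25 (log2 axis) of 7 genes in 9 HY and 12 LY cows, 1 point per cow, with the group median as a line, cow 2814 as a star and cow 3262 as a diamond. The star stands far above all other points for IGJ at 181.3 CPM and IGLL1 at 740.4 CPM, above them for CD79A and MS4A1, inside them for BLNK and FCGRT, and at the bottom for PIGR.

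To show how far single cows carried a gene, each cow's level was taken as a percent of the sum over the 21 cows, where an even spread would put 4.762% in each. Cow 2814 held 81.24% of IGLL1, 62.33% of IGJ, 37.69% of MS4A1 and 22.49% of CD79A. Over the 10712 genes with a mean of at least 0.1 CPM, the highest cow held 10.85% at the median. The share of IGLL1 was above that of 99.85% of these genes, that of IGJ above 99.47%, that of MS4A1 above 97.54% and that of CD79A above 89.4%.

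PIGR was also uneven, but in another cow: HY cow 3262 held 30.23%, more than the highest cow's share in 95.36% of the genes. This share depended on the scaling, since cow 3262 has a TMM factor of 0.4601: with CPM without TMM factors it was 18.55%, still in cow 3262, and 40.69% in the 3 highest cows. The highest cow held 10.97% of BLNK and 10.11% of FCGRT, close to the median gene. The 3 highest cows together held 90.17% of IGLL1, 68.67% of IGJ, 55.78% of MS4A1, 53.83% of PIGR, 42.32% of CD79A, 27.4% of FCGRT and 26.93% of BLNK, against 27.56% for the median gene.

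Cow 2814 was not the highest cow in most genes. It was highest in 775 of the 10712 genes (7.235%), against 1488 genes for HY cow 3280, the cow with most. Without cow 2814 the highest cow was LY cow 3161 for IGLL1, with 25.16% of the sum over 20 cows. LY cow 3407 was then highest in MS4A1 with 17.18%, and LY cow 7598 in CD79A with 14.32%.

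**Figure D2:**
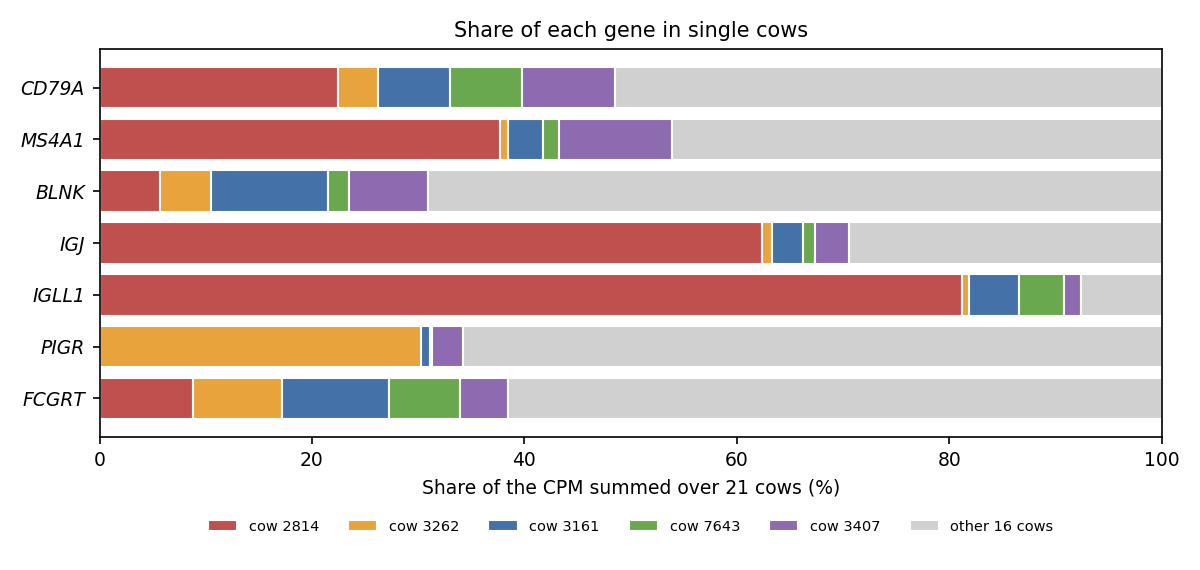
Share (%) of the CPM summed over 21 cows for each gene, as stacked bars of 5 named cows and the other 16 together. Cow 2814 (red) takes 81.24% of IGLL1 and 62.33% of IGJ but no visible part of PIGR, of which cow 3262 (orange) takes 30.23%.

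Wider lists of cell type genes were read in cow 2814 against the median of the other 20 cows, as a description of 1 animal with no test. Of 22 measured B cell receptor and B cell genes, 7 (31.82%) were highest in this cow, against 7.235% of all genes. The median gene of the list stood at 1.842-fold, against 1.018-fold over all genes. The most abundant genes of the list did not stand out. CD83, an activation marker, was at 0.9211-fold, the kinase gene LYN at 1.122-fold and BCL6, the regulator of germinal centre B cells, at 0.8563-fold, and all 3 are also used outside B cells. Some other genes of the list were higher. CD180 was at 9.393-fold, the BAFF receptor gene TNFRSF13C at 9.637-fold, the chemokine receptor gene CXCR5 at 8.155-fold and the transcription factor gene SPIB at 5.484-fold. These 4 genes were named after their values were seen. Further genes of the list were nearer to its median or under it, with FCRL1 at 1.753-fold, BLK at 1.643-fold and BCL11A at 0.787-fold, and CR2, the complement receptor of mature B cells, was at 0.2133-fold.

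Of 14 plasma cell genes, 5 (35.71%) were highest in cow 2814, against 7.235% of all genes. Their list had a median of 1.379-fold over the 13 genes whose median in the others was above 0. The 3 most abundant were SSR4 at 1.27-fold, ELL2, an elongation factor of immunoglobulin secretion, at 0.3709-fold, and HERPUD1, a gene of the endoplasmic reticulum stress response, at 2.215-fold. Values of the following genes were singled out after they were seen. POU2AF1, the B cell coactivator, was at 55.59 CPM against 6.336 CPM in the next cow. MZB1, a chaperone of immunoglobulin assembly, was at 22.87 CPM against 0.9411 CPM at most in any other cow. DERL3 was at 5.692-fold, XBP1, the secretory regulator of plasma cells, at 1.781-fold, PRDM1 at 1.04-fold, SDC1 at 1.172-fold and CD38 at 1.172-fold. The genes of plasma cells thus did not all stand high in this animal.

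Macrophage genes were also high in this cow, while T cell and neutrophil genes were nearer to their levels in the other cows. The part of these markers in its B cell and immunoglobulin levels was not tested. Of 9 macrophage genes 5 (55.56%) were highest in cow 2814, against 7.235% of all genes. Among the 5 were CD68 at 2.226-fold and CSF1R at 2.741-fold. CD14 was at 2.41-fold, and the list had a median of 2.656-fold. The list's summed level was 6882 CPM in this cow, the highest of all, with a range of 1433 to 6882 CPM in HY and 1786 to 5918 CPM in LY. T cell genes had a median of 1.139-fold and neutrophil genes of 1.264-fold. CD3E stood at 1.12-fold, CD4 at 2.303-fold and CD3D at 1.645-fold, and S100A12 at 1.317-fold, S100A9 at 1.295-fold and CXCR2 at 0.7132-fold.

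Epithelial genes were low in the cow. All 7 milk protein genes were under the median of the other cows, with a median of 0.01743-fold, CSN1S1 at 0.01139-fold, CSN2 at 0.01743-fold and PAEP at 0.02906-fold. The 14 epithelial structure genes had a median of 0.09852-fold, KRT19 at 0.04899-fold, ELF5 at 0.0109-fold and MUC1 at 0.04269-fold. Their summed level was 38.65 CPM, the lowest of the 21 cows. The range was 38.65 to 5116 CPM in HY and 189.1 to 2375 CPM in LY.

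Genes that serve immunoglobulin transport alongside PIGR and FCGRT were divided. B2M, the partner chain of the neonatal Fc receptor, was at 0.8769-fold, RAB11A, which directs recycling vesicles, at 0.7922-fold and VPS35 at 0.7472-fold. RAB25 and AP1M2, which are used mainly in epithelium, were at 0.0647-fold and 0.09761-fold and were singled out after their values were seen. On the other side, AP1B1 was at 2.433-fold and highest in this cow. EXOC7 was at 1.758-fold, EXOC4 at 1.624-fold, RAB3D at 1.424-fold and TFRC at 1.334-fold. VAMP7 was at 0.6761-fold, and YES1 had no count in this cow. The 12 measured genes of the list had a median of 0.8345-fold. PIGR itself was at 0.02155-fold, within the range of the milk protein genes.

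**Figure D3:**
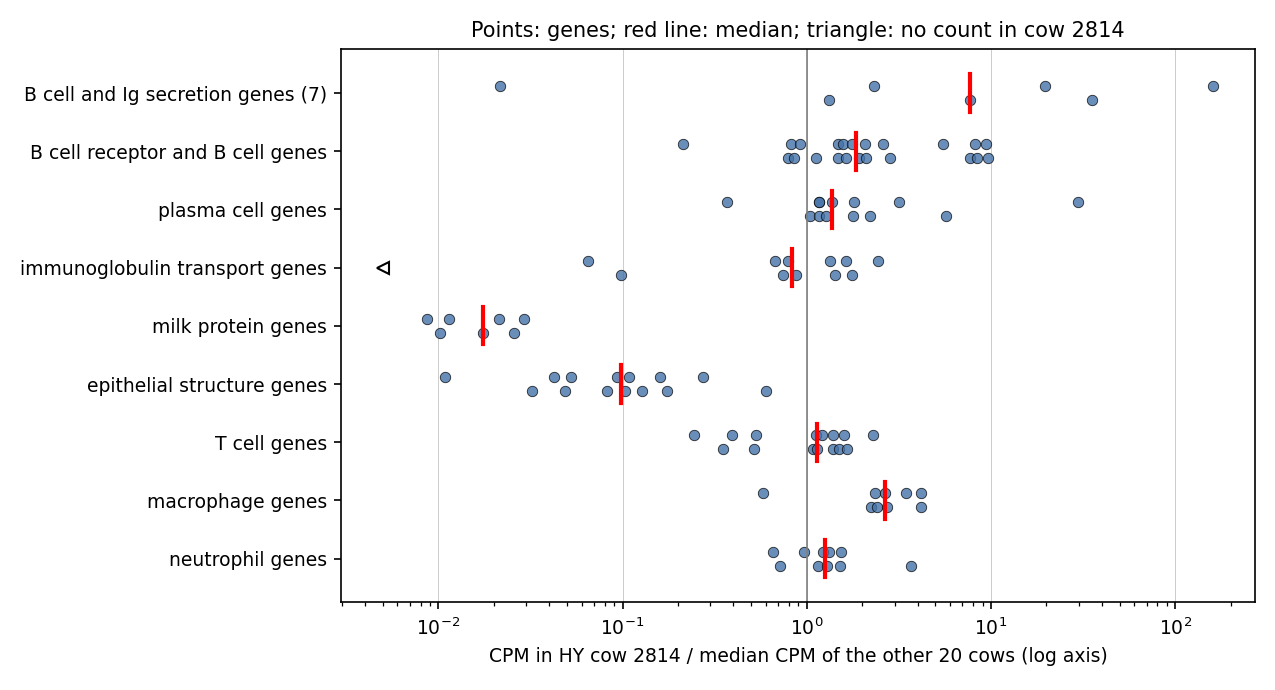
Ratio of the CPM in HY cow 2814 to the median CPM of the other 20 cows (log axis), 1 point per gene in 8 gene lists and the 7 genes of the report. MZB1 has no point since its median in the other cows was 0, and the triangle is YES1, which had no count in cow 2814. The milk protein genes sit near 0.01743 and the epithelial genes near 0.09852, the macrophage genes around 2.656, and IGLL1 at 161 is the point farthest right.

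HY and LY cows were compared first. In the quasi-likelihood test of edgeR, 0 of 12333 genes passed a Benjamini-Hochberg adjusted p of 0.05 (0%), and none of the 7 genes did. DESeq2 called 1 gene (0.00811%), which was none of the 7. At an unadjusted p under 0.05, the threshold used in the study, 580 genes (4.7%) passed and 2 of the 7 genes were among them, IGJ and IGLL1. Their direction rested on cow 2814.

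The HY minus LY estimate of IGJ was 1.91 on the log2 scale (SE 0.68, unadjusted p = 0.009338, adjusted p = 0.9986 by edgeR). Without cow 2814 it was -0.62 (SE 0.30, unadjusted p = 0.05183). That of IGLL1 was 2.75 (SE 1.08, unadjusted p = 0.01724, adjusted p = 0.9986 by edgeR). Without cow 2814 the estimate was -2.26 (SE 0.64, unadjusted p = 0.001665, adjusted p = 0.9992 by edgeR). Both signs turned with 1 animal, and neither estimate passed adjustment over all genes.

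DESeq2 gave -0.55 for IGJ and -2.08 for IGLL1 with all 21 cows. It replaces counts that it takes for outliers, which it did for both genes. With this replacement turned off, a setting added after the data were seen, the estimates were 1.82 and 2.68. So for these 2 genes the tools differed in sign by how they treat an extreme cow. With parity and lactation period as covariates in edgeR, IGJ was at 0.5504 (unadjusted p = 0.4042) and IGLL1 at -1.361 (unadjusted p = 0.3315).

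The remaining B cell genes showed no difference that passed the test. The HY minus LY estimate was 0.11 (SE 0.60) for CD79A, 0.50 (SE 0.77) for MS4A1 and -0.27 (SE 0.31) for BLNK. Without cow 2814 these became -0.75, -1.21 and -0.34. PIGR had an estimate of 0.69 (SE 0.86), which was 0.86 without cow 2814 but -0.28 without cow 3262, the cow that held most of it. FCGRT had 0.17 (SE 0.31), and 0.03 without cow 2814. The lowest adjusted p of any of the 7 genes over the fits that leave out 1 cow was 0.8858 by edgeR.

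The wider lists gave few genes at an unadjusted p under 0.05 between HY and LY. Of 23 B cell receptor and B cell genes there was 1, of 14 plasma cell genes 2 and of 14 immunoglobulin transport genes 1, against 4.7% of all genes. The B cell gene was BLK, with an estimate of -1.12 (SE 0.51), and the transport gene ALB, with -3.72 (SE 0.94) at a mean level under 0.1 CPM. The list medians were 0.11, 0.33 and 0.23 on the log2 scale, against 0.02 over all genes. The plasma cell genes were MZB1, with an estimate of 3.44 (SE 1.20), for which cow 2814 held most counts, and TXNDC5 with 0.56 (SE 0.23). No gene of the 8 lists passed adjustment.

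**Figure D4:**
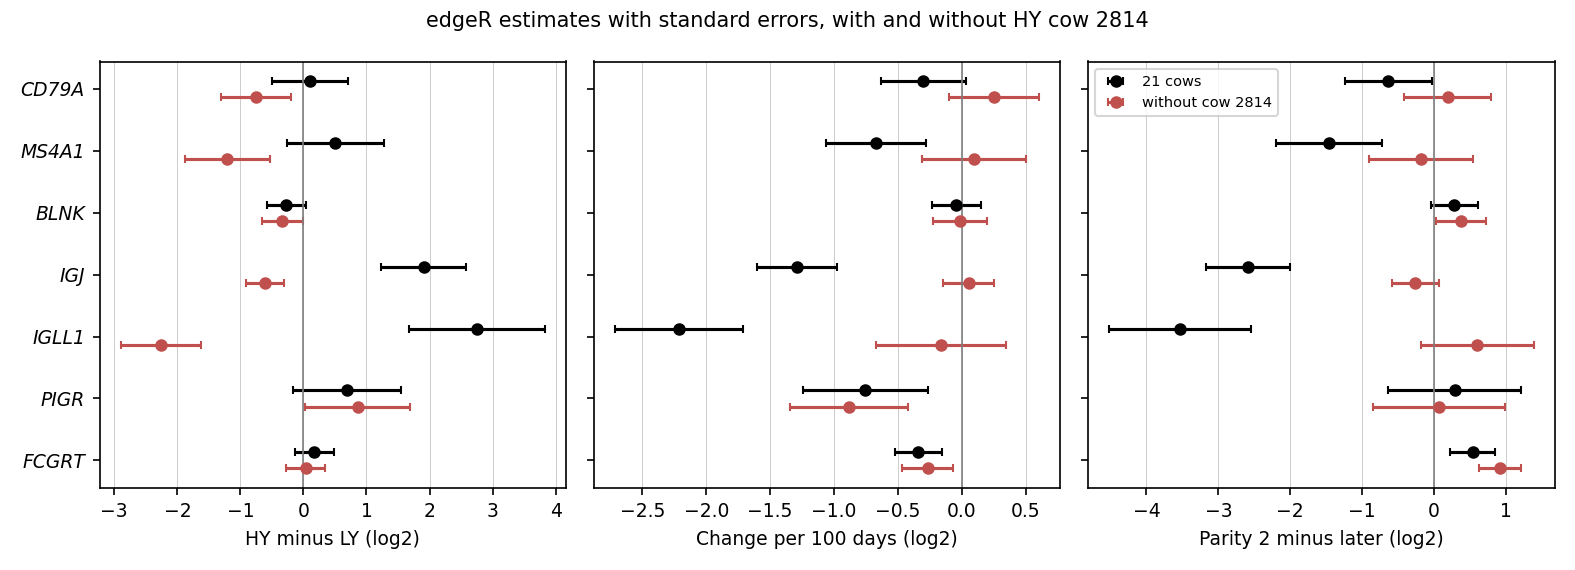
Estimates of edgeR on the log2 scale with their standard errors for HY minus LY, for the change per 100 days of lactation and for parity 2 minus later parities, with all 21 cows (black) and without HY cow 2814 (red). For IGJ and IGLL1 the black points lie far from 0 in all 3 panels, and the red points move to the other side (IGLL1 between HY and LY from 2.75 to -2.26) or close to 0.

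Milk yield itself was then regressed on the log2 level of each gene, as in the study, with the breeding value of milk yield as the response. The regression gave 0 genes at an adjusted p under 0.05 (0%) by the ordinary and by the robust regression, and 307 genes (2.49%) at an unadjusted p under 0.05. None of the 7 genes was in either set. The slope was -31.87 units of milk yield per doubling of PIGR (SE 23.09), -32.16 for IGLL1 (SE 26.02), -27.81 for MS4A1 (SE 31.85) and 33.74 for FCGRT (SE 85.92). Adjusted p was 0.9999 for all 7 genes. Without cow 2814 the slopes were -30.05 for PIGR, -52.19 for MS4A1 and 14.46 for FCGRT. When cow 2814 was left out, the slope for IGLL1 was -92.21 (SE 32.29), with an unadjusted p of 0.01051 and an adjusted p of 1. This corresponds to the lower IGLL1 of the other HY cows given above and is not separate evidence.

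Stage of lactation was asked next, with the change per 100 days over the 21 cows. Only 3 of 12333 genes (0.0243%) passed adjustment by edgeR, none of them among the 7, while 2756 genes (22.3%) had an unadjusted p under 0.05. Of the 7 genes 2 did, which is near the share of all genes. IGJ changed by an estimate of -1.29 per 100 days (SE 0.31) and IGLL1 by -2.21 (SE 0.50), each with an adjusted p of 0.06387 by edgeR. DESeq2, which replaces no counts in this model, gave adjusted p-values of 0.01909 and 0.01155, beside 920 of 12333 genes (7.46%) that it called in all. Neither estimate was far from 0 without cow 2814, the cow at day 41: IGJ was then at 0.05 (SE 0.20) and IGLL1 at -0.16 (SE 0.51).

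PIGR had a change of -0.76 per 100 days (SE 0.49, unadjusted p = 0.1352), and -0.88 (SE 0.46) without cow 2814. It kept its sign in the fits that leave out any 1 cow, with estimates from -0.96 to -0.30. FCGRT was at -0.34 (SE 0.18), MS4A1 at -0.67 (SE 0.39), CD79A at -0.30 (SE 0.33) and BLNK at -0.04 (SE 0.19), and none of these passed the test. Without cow 2814 FCGRT was at -0.27, MS4A1 at 0.09, CD79A at 0.25 and BLNK at -0.02, so that MS4A1 and CD79A changed sign. All 7 milk protein genes had negative estimates with a median of -0.98 per 100 days, and 3 of them an unadjusted p under 0.05. Of the 14 plasma cell genes, 6 had an unadjusted p under 0.05, against 22.3% of all genes. SSR4 was at -0.95 (SE 0.27), MZB1 at -2.60 (SE 0.58), POU2AF1 at -0.9978 (SE 0.48) and PRDM1 at 0.72 (SE 0.29), so that the list was not of 1 direction. Cow 2814, at day 41, had MZB1 at 22.87 CPM against at most 0.9411 CPM in any other cow. For POU2AF1 these levels were 55.59 and 6.336 CPM. Slopes of the list genes without cow 2814 are not given, and its part in them was not tested.

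Parity 2, with 14 cows, was compared with later parities, with 7 cows, among them cow 2814. By edgeR 0 genes passed adjustment (0%), as by DESeq2, and 706 genes (5.72%) had an unadjusted p under 0.05. Of the 7 genes these were IGJ with an estimate of -2.59 (SE 0.59) and IGLL1 with -3.53 (SE 0.99). Without cow 2814 IGJ was at -0.26 (SE 0.33) and IGLL1 at 0.60 (SE 0.78). DESeq2, which replaced counts of both genes, gave -0.2842 for IGJ (unadjusted p = 0.322) and -0.5053 for IGLL1 (unadjusted p = 0.313) with all cows, and edgeR with covariates gave -1.701 for IGJ (unadjusted p = 0.00712) and -1.867 for IGLL1 (unadjusted p = 0.1221). The estimate of FCGRT lay farther from 0 when cow 2814 was left out. It was at 0.54 (SE 0.31) with all cows and at 0.92 (SE 0.29) without it, with an unadjusted p of 0.004675 and an adjusted p of 0.4761 by edgeR. The 6 later parity cows other than 2814 lay between 136 and 210.7 CPM of FCGRT, and the 14 parity 2 cows between 129 and 583.9 CPM with a median of 243.7. The later parity cows were thus at the lower end, within the range of the parity 2 cows.

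Whether the genes moved together over cows was asked with the correlation of log2 levels for the 21 pairs of the 7 genes. In these relations the points share a library and its normalization. By Pearson r, 3 pairs passed adjustment over the 21 pairs: MS4A1 with IGJ, MS4A1 with IGLL1 and IGJ with IGLL1. MS4A1 and IGJ gave r = 0.729 (permutation p = 4e-05, adjusted p = 0.00084) and Spearman rho = 0.691 (permutation p = 0.00084, adjusted p = 0.0176). After removal of the 2 cows with the most distant MS4A1 levels r was 0.637, in the lower set of 16 cows it was 0.807, and without cow 2814 it was 0.718. The r of this pair thus stayed positive and over 0.6 in each of these checks. Its rho was 0.582 without the 2 farthest cows and 0.868 in the lower set. Without cow 2814 rho was 0.642 (permutation p = 0.00282, adjusted p = 0.0592), which did not pass adjustment.

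IGJ and IGLL1 gave r = 0.741 (permutation p = 0.00303, adjusted p = 0.026) but rho = 0.497 (permutation p = 0.0233, adjusted p = 0.141). Their r was 0.28 without the 2 farthest cows and 0.345 without cow 2814, so the size of r rested on that cow. Within the 16 cows, which include cow 2814, r was 0.819. The rho without cow 2814 was 0.418 (permutation p = 0.0687, adjusted p = 0.361). MS4A1 and IGLL1 gave r = 0.605 (permutation p = 0.00372, adjusted p = 0.026) and rho = 0.514 (permutation p = 0.0182, adjusted p = 0.141). Here r was 0.355 without the 2 farthest cows, 0.413 without cow 2814 and 0.672 within the 16 cows. CD79A passed with no other gene. Its r was 0.428 with MS4A1, 0.477 with IGJ and 0.462 with IGLL1, with adjusted p-values from 0.125 to 0.127.

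No relation of PIGR with a B cell or immunoglobulin gene passed adjustment. Its r was -0.155 with CD79A, -0.303 with MS4A1, -0.359 with IGJ, -0.378 with IGLL1 and -0.0604 with BLNK, with permutation p from 0.0894 to 0.796 and adjusted p from 0.188 to 0.796. The corresponding rho ran from -0.0169 for CD79A to -0.264 for MS4A1. With FCGRT the r was -0.462 (permutation p = 0.0352, adjusted p = 0.123). Without cow 2814 the r of PIGR with IGJ was 0.057 and that with CD79A 0.0586.

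With the milk protein genes PIGR did pass. Against their summed level r was 0.972 and rho 0.962, both with a permutation p of 1e-05, the smallest that the resamples can give, and adjusted p over 35 relations of 0.000117 and 0.000175. This r was 0.963 without the 2 farthest cows, 0.976 within the 16 cows and 0.967 without cow 2814. Against the 14 epithelial structure genes r was 0.938 and rho 0.952 (permutation p = 1e-05 for both), with r = 0.925 without the 2 farthest cows and 0.952 within the 16 cows. Against the macrophage genes it was negative, with r = -0.804 (permutation p = 1e-05, adjusted p = 0.000117) and rho = -0.819 (permutation p = 2e-05, adjusted p = 0.000233). This r was -0.732 without the 2 farthest cows and -0.814 within the 16 cows. With T cell and neutrophil genes r was -0.183 and -0.184. Milk protein mRNA took up to 60.45% of the counts of a cow, and the part of this in the relations was not tested.

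The genes with the order of cows most like that of PIGR gave the same picture. Among 7145 genes that reached 10 counts in each of the cows, those with the highest rho included CSN1S1 at 0.974, CSN1S2 and SMAD1 at 0.9701 and BTN1A1 at 0.9675. CSN1S1 and CSN1S2 encode caseins, and BTN1A1 encodes butyrophilin of the milk fat globule. For IGLL1 the nearest genes were TOR3A at 0.8247, FAM193B at 0.7481, ANKRD13D at 0.7403, WWP2 at 0.7325 and LAG3 at 0.7247. For CD79A they were CISH at 0.6935, CCDC101 at 0.6896, RMND5B at 0.6831, RNF113A at 0.6792 and FBF1 at 0.6649. For IGJ they were TAF1B and ZCCHC3 at 0.626, BBS5 at 0.6065, RBAK at 0.6039 and MYB at 0.5922. No milk protein gene was among the 5 nearest of CD79A, IGJ or IGLL1.

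**Figure D5:**
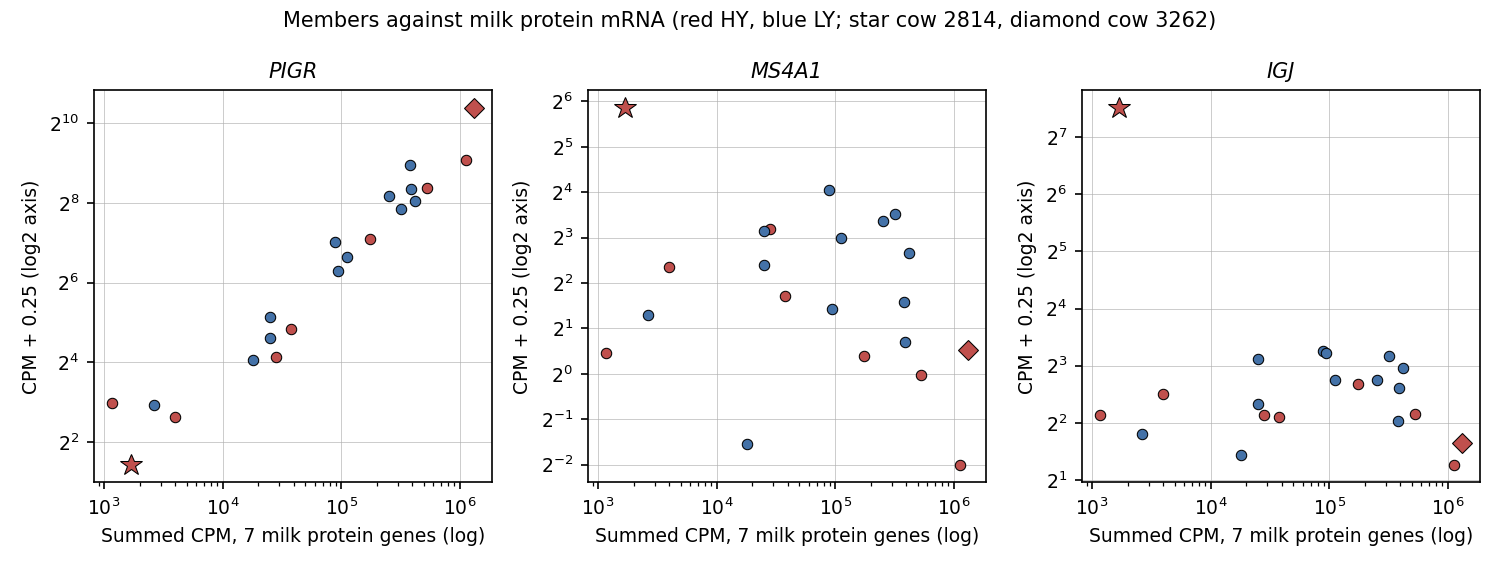
PIGR, MS4A1 and IGJ (CPM + 0.25, log2 axis) against the summed CPM of 7 milk protein genes (log axis), 1 point per cow, HY red, LY blue, cow 2814 a star and cow 3262 a diamond. PIGR rises along the whole range (r = 0.972). MS4A1 and IGJ show no such line, and the star stands alone at the upper left.

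FCGRT passed adjustment with the macrophage genes alone. Its r with the macrophage genes was 0.711 (permutation p = 0.00035, adjusted p = 0.00306) and rho was 0.621 (permutation p = 0.00346, adjusted p = 0.0303). This r was 0.64 without the 2 farthest cows, 0.753 within the 16 cows and 0.664 without cow 2814. With the milk protein genes r was -0.526 (permutation p = 0.0159, adjusted p = 0.0927). The 2 transport receptor genes thus had opposite signs of r with both marker lists. MS4A1 went with the T cell genes, with r = 0.592 (permutation p = 0.00459, adjusted p = 0.0321), rho = 0.569 (adjusted p = 0.0574), r = 0.577 without the 2 farthest cows and 0.609 within the 16 cows.

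These relations were counted under the other scalings as well. Of the 35 relations with marker genes, 5 passed adjustment by r with TMM factors, and 13 did when CPM were used without them. For the pairs, 3 passed with TMM factors and 11 without. PIGR with milk protein, epithelial and macrophage genes kept its sign under each scaling. The r of PIGR and FCGRT was -0.711 (adjusted permutation p = 0.00388) without the factors, so that this pair passed in that scaling only.

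The difference between PIGR and each B cell or immunoglobulin gene within a cow was compared between HY and LY with an exact permutation test, two-sided, over all choices of 9 among the 21 cows. The HY mean minus the LY mean of this log2 difference was -0.95 for CD79A (p = 0.491 by the exact permutation test), -0.09 for MS4A1 (p = 0.959), -0.90 for IGJ (p = 0.557) and 0.19 for IGLL1 (p = 0.92). Without cow 2814 these were -0.09, 1.002, 0.23 and 1.66, with exact permutation p from 0.229 to 0.939. In all 4 comparisons the difference was most negative in cow 2814, reaching -8.10 for IGLL1. The SD of the difference was 3.70 to 5.38 within HY, 2.84 to 4.18 within HY without cow 2814 and 1.73 to 2.65 within LY, and these spreads were not tested against each other.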

How the data were processed

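RNA of milk somatic cells from 21 Holstein cows was sequenced on an Illumina instrument. Per the study's methods and the submitters' processing notes, reads were trimmed with Trimmomatic, mapped to bosTau7 with Bowtie2 within TopHat2, converted with SAMtools and counted on genes with HTSeq; tool versions and strand settings are not given in the sources used here. The authors deposited raw read counts per gene, 1 table per cow, without normalization. Depth was 7878557 to 28541904 counts on genes per cow. Summary rows of the counter and a row with no gene name (0.036% to 0.151% of counts) were left out, and 23 symbols that had turned into dates could not be read as genes. Groups, parity and lactation day were taken from the labels. All 7 symbols matched RefSeq, IGJ as a synonym of JCHAIN; RefSeq was of another assembly, so no coordinates are given, and no sequences are shown.

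Genes with a count in any cow (12333) were tested with edgeR 4.0.16 in R 4.3.3 (TMM factors, quasi-likelihood test, Benjamini-Hochberg adjustment over all genes). Milk yield was regressed on log2(CPM + 0.25) by least squares. DESeq2 1.42.0 and robust regression with MASS 7.3.60.0.1 (Huber k of 1.345) were alternatives. Correlations were tested with 100000 permutations and the PIGR differences with exact ones (scipy 1.17.1). The edgeR fits were tested on simulated data. No 2 libraries were alike within sampling noise (lowest chi-square per degree of freedom 37.95). Mapping rates from the study's supplement served only to split cows at 85%. Other alternatives were DESeq2 size factors, CPM without factors, a pseudocount of 1, at least 10 counts in every cow, covariates and leaving out each cow.

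The genes, lists and tests were chosen with earlier results of these data known. Besides the 7 genes, the rule was to name the list genes that passed adjustment, otherwise the 3 with the highest mean CPM of each list, and the 5 genes of most like cow order. Other list genes named in the text fall outside this rule and were chosen after their values were seen. CD79B and PAX5 were not analysed here, so that 21 pairs, 35 relations with markers and 4 differences were tested, fewer than planned. Values of 2 further genes that this rule or the text would have named are not reported here.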

Additional observations from a re-analysis of the deposited data

Results flagged for a closer look

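In each group of 4 to 10 samples, the gap of the most extreme cow to its nearest neighbour was divided by the range of the group. Only HY, with 9 cows, is of that size, and the critical ratio there is 0.493. For the 7 genes on 2 scales, 14 sets of values were examined and 8 had a ratio above it. If values follow a normal distribution, chance flags about 1 in 20 such sets. CPM are skewed, so this rate does not hold on that scale. The sets here also share cows and are not independent. On the CPM scale HY cow 2814 stood apart as the highest cow with a ratio of 0.9924 for IGLL1, 0.9779 for IGJ, 0.8724 for CD79A and 0.846 for MS4A1. On the log2 scale the ratio of this cow was 0.7749 for IGJ, 0.6498 for IGLL1 and 0.6463 for CD79A, while for MS4A1 it was 0.3397, under the critical ratio. HY cow 3262 stood apart as the highest cow in PIGR with a ratio of 0.5909 on the CPM scale, and its log2 value did not.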

How the results depend on the processing

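No paired analysis was possible because HY and LY are different cows, with 1 library each, and nothing in the labels matches them in pairs. DESeq2 called 1 gene between HY and LY and 920 genes over lactation, where edgeR called 0 and 3. The lactation count was 0 over genes that reached 10 counts in each cow, 0 in the 16 cows of mapping rate under 85%, 0 with covariates, and 0 to 428 when 1 cow was left out, the highest without LY cow 3407. IGLL1 has fewer than 10 counts in some cows and was not tested under that filter. Between HY and LY, DESeq2 turned IGJ to -0.548 and IGLL1 to -2.079, and covariates turned CD79A to -0.176, MS4A1 to -0.3802 and IGLL1 to -1.361. BLNK over lactation was 0.158 within the 16 cows, PIGR over parity -1.18 with covariates, and the milk yield slope of IGJ 8.119 with covariates.

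Leaving out 1 cow gave these ranges. Between HY and LY they were -0.7541 to 0.2779 for CD79A, -1.208 to 0.7374 for MS4A1, -0.6154 to 2.05 for IGJ, -2.261 to 3.112 for IGLL1 and -0.2769 to 0.9134 for PIGR. Over lactation they were -0.4172 to 0.2511 for CD79A, -0.8203 to 0.09331 for MS4A1, -0.1336 to 0.04703 for BLNK and -1.355 to 0.05228 for IGJ, with an adjusted p of 0.03343 at the lowest for IGJ and 0.03164 for IGLL1. Over parity they were -0.8642 to 0.1901 for CD79A, -3.981 to 0.6039 for IGLL1 and -0.4105 to 0.6897 for PIGR. The milk yield slope of CD79A ran from -20.56 to 49.86. The lowest or highest value came from leaving out cow 2814 for CD79A, MS4A1, IGJ and IGLL1 in the first 3 comparisons where they are given, and cow 3262 for the lowest of PIGR.

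Pairs of genes past adjustment numbered 3, and 11 by CPM without TMM factors, 5 with a pseudocount of 1 and 1 without cow 2814. Relations with markers past adjustment numbered 5, and 13 without TMM factors. The r of PIGR with T cell genes was 0.0153 within the 16 cows, and without cow 2814 its r was 0.0586 with CD79A and 0.057 with IGJ. The HY minus LY value of PIGR minus IGLL1 was -0.05612 with a pseudocount of 1 and -0.5567 within the 16 cows. Leaving out 1 cow it ran from -0.4021 to 1.659, that of PIGR minus MS4A1 from -0.9358 to 1.002 and that of PIGR minus IGJ from -1.616 to 0.2323. The cause of these changes was not tested beyond the settings named. Low counts limit CD79A and MS4A1, which have 0 counts in 1 cow each. They also limit IGLL1, which had 2 counts in HY cow 3014 and a median of 26 counts in HY without cow 2814.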

Other observations

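LAG3, an inhibitory receptor of activated T and natural killer cells, was among the 5 genes nearest to IGLL1 in cow order, and it was at 113.3 CPM in HY cow 2814 against 36.67 CPM at most in any other cow. Among transcripts of cytotoxic lymphocytes, gzmA and GNLY were also highest in this cow. The gene gzmA was at 8.229 CPM, against 5.825 CPM in the next cow, and GNLY at 79.94 CPM, against 69.22 CPM. None of the 15 measured T cell genes was highest in cow 2814, against 7.235% of all genes. CD8A was at 1.139-fold and CD8B at 1.207-fold the median of the others. LAG3, gzmA and GNLY were singled out after their values were seen, and no test was made on them.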
